A study of Mus musculus with 91 samples.

Results

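The TNF receptor superfamily was followed through 9 of its genes in splenic regulatory T cells (Tregs) of mice given interleukin-2. The members were the rows with the symbols Tnfrsf1a, Tnfrsf1b, Tnfrsf4, Tnfrsf9, Tnfrsf18, Tnfrsf25, Tnfrsf14, Fas and Cd27 in the 8 deposited count tables. All 9 were present in every table and passed the filter on low counts in each, 9 of the 19921 genes that could be tested in at least 1 table. They were listed by name, with earlier results of these data known. Each treated group was set against the PBS group of its own table.

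Receptors of this superfamily bind trimeric ligands of the TNF family at the cell surface and carry no enzyme of their own. Most of them recruit TRAF adaptors and switch on NF-kB, while a subset with a death domain (the receptors encoded here by Tnfrsf1a, Fas and Tnfrsf25) can also assemble complexes that activate caspase-8. On T cells several act as costimulatory receptors, and Tregs are known for high levels of OX40, GITR, 4-1BB and TNFR2. Interleukin-2 reaches Tregs through a receptor that contains CD25 and signals through STAT5.

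RNA was sequenced from sorted splenic Tregs of C57/BL6 mice carrying a red fluorescent FoxP3 reporter, in 75 libraries. In the main time course mice received FP, a fusion of mouse IL-2 with CD25 (4 libraries at 1.5 h, 3 at 4 h, 4 each at 16 h, 72 h and 168 h), mIL-2 (4 libraries each at 1.5 h, 4 h and 16 h and 3 at 72 h) or PBS (4 at 1.5 h and 16 h, 3 at 4 h, 72 h and 168 h). An in vitro table held Tregs treated with IL-2 or PBS for 1.5 h (3 libraries each), and a high dose table held mice given mIL-2 or PBS (3 libraries each) at a time and dose that the labels do not give. A restimulation table, sampled 1.5 h after the last injection, held repeated FP (FP and then a second dose of FP, 4 libraries), single FP (PBS and then FP, 3 libraries) and PBS given both times (3 libraries). The protocol names 20 ug of FP for these mice and no dose of mIL-2, so FP and mIL-2 cannot be read as matched doses. At 4 h the title and the injected molecule contradict each other in 2 further libraries, which entered no comparison. The labels do not say that libraries came from separate mice or cultures, so the p-values measure the spread between these libraries.

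Library totals ran from 12.2 M to 46.1 M counts. The Treg identity genes Foxp3, Cd4, Cd3e, Il2ra, Ikzf2 and Ctla4 were detected throughout, with a summed level of 2930 to 6290 CPM (counts scaled to library size by TMM). Their sum also moved with treatment: it was 4810 to 5270 CPM after FP against 3150 to 3340 CPM in PBS libraries at 1.5 h, 4570 to 4910 CPM after FP against 3160 to 3660 CPM in PBS libraries at 16 h, and 5280 to 5850 CPM after FP against 3080 to 3590 CPM in PBS libraries at 72 h. Myeloid markers were present as well: their summed level was 415 to 1470 CPM in PBS libraries at 1.5 h, led by Vcam1 and Csf1r, while Itgam stayed between 0.154 and 0.531 CPM, and it moved with the groups. It lay at 26.8 to 96.5 CPM in FP libraries against 433 to 1070 CPM in PBS libraries at 72 h (13 of 14 listed markers in the table), and at 32.9 to 46.2 CPM in FP libraries against 293 to 420 CPM in PBS libraries at 168 h (11 of 14). B cell markers summed to 27.2 to 33.1 CPM after FP, against 38.3 to 48.8 CPM in PBS libraries, at 168 h (9 of 10). The common biological coefficient of variation ranged from 4.48% in vitro and 11.2% at 16 h to 38.4% at 4 h and 40.7% in the high dose table.

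At rest the 9 genes spanned a wide range of levels. Over the 23 PBS libraries from animals, the level per exon length was highest for Cd27, with a median of 115 CPM per kb (90.3 to 169), and for Tnfrsf4, with a median of 105 CPM per kb (78.1 to 219). Tnfrsf1b (70.3 CPM per kb), Tnfrsf18 (64.6) and Tnfrsf9 (41.8) followed, then Tnfrsf14 (34.5) and Tnfrsf25 (29.1), and Tnfrsf1a and Fas closed the order at 14.6 CPM per kb each. The steps from Tnfrsf4 to Tnfrsf1b, from Tnfrsf18 to Tnfrsf9 and from Tnfrsf25 to Tnfrsf1a held in all 23 libraries. Cd27 exceeded Tnfrsf4 in 16 of 23, Tnfrsf1b exceeded Tnfrsf18 in 16 of 23 and Tnfrsf1a exceeded Fas in 10 of 23, so these neighbours were not separated beyond the spread between libraries. In the 3 PBS libraries kept in vitro the order was another: Tnfrsf4 had a median of 300 CPM per kb, Tnfrsf1b 194 and Tnfrsf9 124, each above the highest of the 23 animal libraries, while Tnfrsf25 (15.4) and Tnfrsf14 (23.6) lay below the lowest. In vitro and animal libraries were normalised in separate tables, and this difference was not tested.

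**Figure D1:**
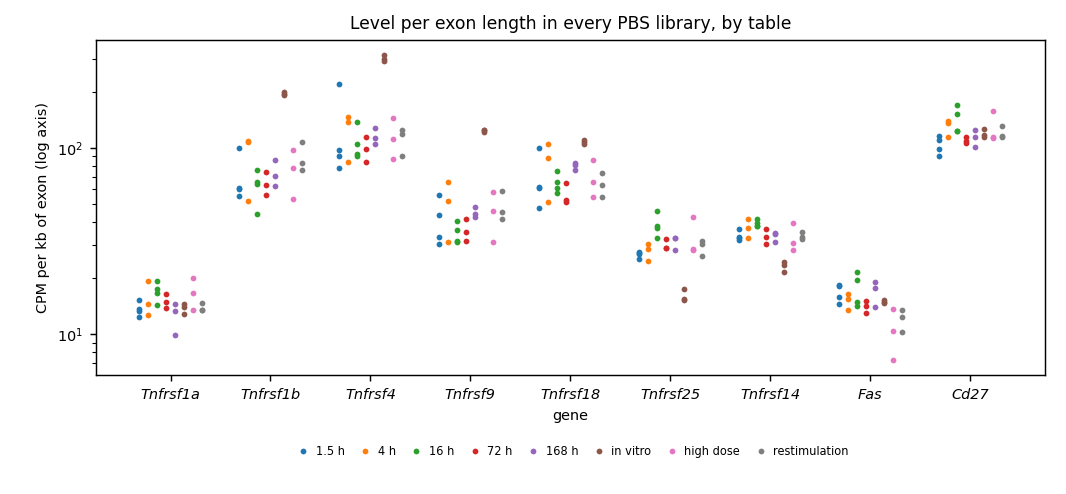
Level of each gene in CPM per kb of exon (log axis) in every PBS library, coloured by deposited table. Cd27 and Tnfrsf4 sit at the top and Tnfrsf1a and Fas at the bottom in the animal tables, and the in vitro points of Tnfrsf4, Tnfrsf1b and Tnfrsf9 lie above all animal points.

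Against PBS, the number of members that changed differed between the comparisons. Such counts also depend on the spread between libraries, which differed between tables. Time, agent and spread cannot be told apart in them. A gene is counted as changed at an adjusted p under 0.01 in edgeR's quasi-likelihood test, the false discovery rate that the study design names. After FP, 0 of 9 members changed at 1.5 h (6.67% of all genes tested changed) and 0 of 9 at 4 h (0.913% of all genes). At 16 h FP changed 6 of 9, 2 higher and 4 lower (28.8% of all genes), and at 72 h it changed 5 of 9, 4 higher and 1 lower (30.4% of all genes). At 168 h 0 of 9 differed (1.21% of all genes). After mIL-2 the counts were 1 of 9 at 1.5 h, a lower one (14.2% of all genes), 0 of 9 at 4 h (0.652%), 0 of 9 at 16 h (0.35%) and 0 of 9 at 72 h (0% of 18624 genes). In vitro IL-2 changed 8 of 9, 4 higher and 4 lower (13.9% of all genes).

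Unadjusted p-values under 0.05 were found for 3 members after FP at 1.5 h, 4 at 4 h and 1 at 168 h. The numbers for all genes were 4449 of 16643 at 1.5 h, 3108 of 17636 at 4 h and 2582 of 17411 at 168 h. After mIL-2 such p-values were found for 1 member at 4 h, 1 at 16 h and 0 at 72 h. For all genes they were found for 2474 of 17636 at 4 h and 2021 of 17453 at 16 h. DESeq2 called 1 member after FP at 1.5 h, Cd27, and none in the other comparisons with 0 calls in the time course. For all genes at 72 h after mIL-2, 82 had an unadjusted p under 0.05 and DESeq2 called 0. The median log2 change of the 9 members was -0.28 after FP at 16 h and 0.28 at 72 h, against -0.05 for all genes at both times. Comparisons of FP and of mIL-2 with PBS at the same time share their PBS libraries.

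**Figure D2:**
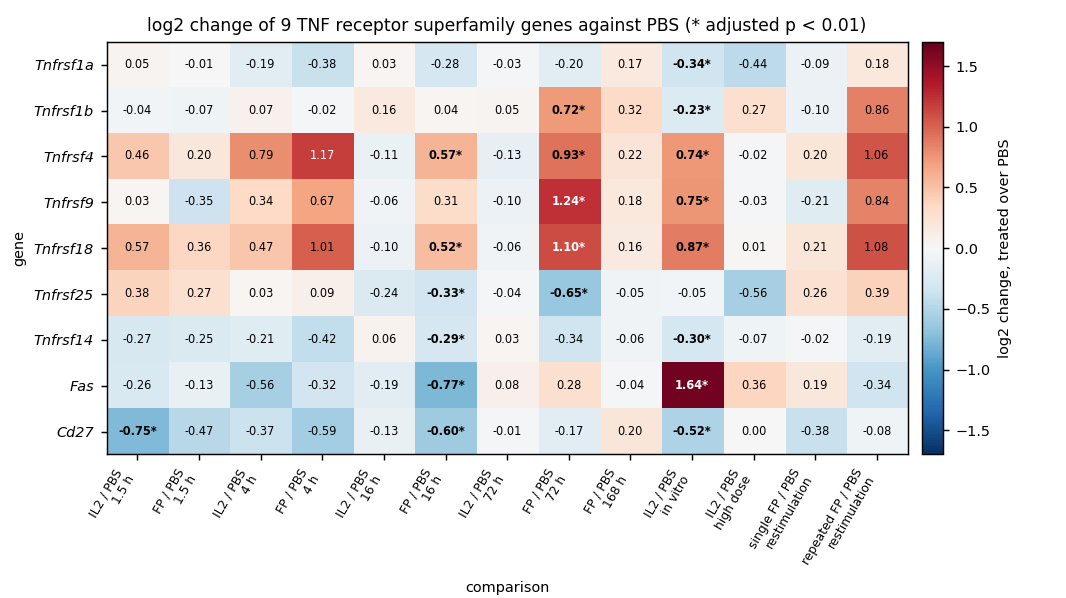
Log2 change of each gene (rows) in each treated group over the PBS group of its table (columns), with an asterisk at an adjusted p under 0.01. Tnfrsf4, Tnfrsf18, Tnfrsf9 and Tnfrsf1b hold the 4 highest values after FP at 72 h and after repeated FP, Fas reaches 1.64 in vitro, and the mIL-2 columns at 16 h and 72 h hold no asterisk.

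Tnfrsf4 and Tnfrsf18 encode OX40 and GITR, costimulatory receptors that bind OX40L and GITRL, and both are constitutively expressed on mouse Tregs. They are neighbours on chromosome 4 in GRCm38: Tnfrsf4 spans chr4:156013843-156016612 and Tnfrsf18 spans chr4:156026164-156028895, both on the plus strand. Their promoters are shown because the 2 genes moved together. The windows run from 250 bases before to 50 bases after the RefSeq start in GRCm38.p6, at chr4:156013445-156013744 for Tnfrsf4 and chr4:156026072-156026371 for Tnfrsf18, both plus strand, with matches to the STAT5 motif TTCNNNGAA in capitals.
Tnfrsf4: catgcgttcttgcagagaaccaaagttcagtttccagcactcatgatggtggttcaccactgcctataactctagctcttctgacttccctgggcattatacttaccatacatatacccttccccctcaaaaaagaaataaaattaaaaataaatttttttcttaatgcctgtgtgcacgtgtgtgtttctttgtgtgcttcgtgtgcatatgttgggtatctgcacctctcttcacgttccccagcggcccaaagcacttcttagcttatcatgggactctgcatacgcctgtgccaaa
Tnfrsf18: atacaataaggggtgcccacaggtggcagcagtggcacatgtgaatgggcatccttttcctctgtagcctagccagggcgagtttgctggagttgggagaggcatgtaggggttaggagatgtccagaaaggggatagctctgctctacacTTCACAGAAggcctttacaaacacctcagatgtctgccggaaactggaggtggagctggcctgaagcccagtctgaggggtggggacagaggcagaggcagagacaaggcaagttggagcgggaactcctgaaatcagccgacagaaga
The Tnfrsf18 window holds 1 STAT5 match, which starts at -99 from the RefSeq start, and the Tnfrsf4 window holds none. Positions are counted from the RefSeq start of a window and not from the start of the gene span given above. On either strand the motif was found in 6 of the 11 promoter windows listed for the 9 members and in 8.3% of all 32851 windows. The NF-kB motif, which overlaps it in none of these windows, was found in 1 of the 11 and in 4.51% of all windows. These are matches of letters and were not tied to binding.

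At 16 h both genes rose after FP. Marker sums of other cells were lower in the same FP libraries or overlapped. B cell markers (9 of 10 in the table) summed to 25.9 to 34.1 CPM after FP, against 41.2 to 52.8 CPM in PBS libraries, and myeloid markers (11 of 14) to 359 to 723 CPM after FP, against 528 to 845 CPM in PBS libraries, with overlap. Their part in the 16 h changes was not tested. Tnfrsf4 had 233, 215, 202 and 212 CPM in FP libraries, against 126, 142, 187 and 123 CPM in PBS libraries. Every FP library lay above every PBS library, and the log2 change was 0.57 ± 0.10 (SE; adjusted p = 0.000335). Tnfrsf18 had 150, 149, 132 and 136 CPM in FP libraries, against 87.5, 100.2, 115 and 92.4 CPM in PBS libraries, again without overlap, a log2 change of 0.52 ± 0.08 (adjusted p = 5.86e-05).

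At 72 h the FP libraries stood further above PBS. Tnfrsf4 had 346, 265, 214.5 and 200 CPM after FP, against 155, 135 and 115 CPM in PBS libraries, a log2 change of 0.93 ± 0.17 (adjusted p = 0.00095). Tnfrsf18 had 204, 212, 166 and 152.5 CPM after FP, against 98.4, 80.0 and 77.6 CPM in PBS libraries, a log2 change of 1.105 ± 0.13 (adjusted p = 3.6e-05). Neither gene's groups overlapped, and for Tnfrsf18 the FP effect at 72 h exceeded that at 16 h by 0.58 ± 0.15 on the log2 scale (adjusted p = 0.00731). This call was lost with DESeq2's size factors in edgeR (adjusted p = 0.0113) and in several single-library omissions, with adjusted p-values up to 0.0291. For Tnfrsf4 the difference between the FP effects at 72 h and 16 h was 0.35, with a 95% interval of -0.08 to 0.78. In this contrast of FP effects, 4 of 9 members passed the test, all higher at 72 h, against 15.6% of all genes. Myeloid markers were lower in the same 72 h FP libraries, as given above, while CD8 T and NK markers were higher. The CD8 T and NK markers (8 of 9 in the table) summed to 35.1 to 45.7 CPM after FP. They summed to 30.2 to 32.6 CPM in PBS libraries and 27.6 to 31.1 CPM in mIL-2 libraries, without overlap with FP. The part of either sum in the changes of the members was not tested. In bulk libraries, fewer cells of a type and less RNA per cell cannot be told apart.

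At 168 h the elevation of both genes was no longer detected. Tnfrsf4 averaged 184 ± 20.7 CPM in FP libraries (SD, n = 4) and 157 ± 15.5 CPM in PBS libraries (n = 3), and Tnfrsf18 averaged 136 ± 25.8 CPM in FP libraries and 122 ± 5.42 CPM in PBS libraries. The FP effect on Tnfrsf18 at 168 h was lower than at 72 h by -0.94 ± 0.20 (log2, adjusted p = 0.00288), and 3 of 9 members passed the test of this difference, 1 higher and 2 lower, against 8.6% of all genes. When PBS replicate 2 or 3 of the 72 h table was left out, 0 of the 3 passed, with adjusted p-values for Tnfrsf18 of 0.0138 and 0.0147. Tnfrsf4 differed by -0.70 ± 0.22 with an adjusted p of 0.0343.

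mIL-2 gave another course. At 16 h Tnfrsf4 had 136, 136, 137 and 125 CPM after mIL-2 and Tnfrsf18 had 92.4, 92.7, 96.0 and 88.7 CPM, all within the range of the PBS libraries given above. FP against mIL-2 at 16 h separated both genes, with log2 differences of 0.69 ± 0.10 for Tnfrsf4 (adjusted p = 5.59e-05) and 0.62 ± 0.08 for Tnfrsf18 (adjusted p = 9.98e-06). At 72 h the differences between FP and mIL-2 were 1.06 ± 0.17 for Tnfrsf4 (adjusted p = 0.000386) and 1.16 ± 0.13 for Tnfrsf18 (adjusted p = 2.55e-05). In all, FP and mIL-2 differed for 7 of 9 members at 16 h (3 higher and 4 lower after FP, 31.8% of all genes) and for 5 of 9 at 72 h (4 higher and 1 lower, 30.8% of all genes).

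The early values of Tnfrsf4 and Tnfrsf18 hung on 1 library. At 1.5 h Tnfrsf4 had 186.5, 178, 201.5 and 190 CPM after FP and 227, 243.5, 212.5 and 224 CPM after mIL-2, against 123, 132, 107 and 299 CPM in PBS libraries. PBS replicate 4 was above every treated library and the other PBS libraries were below every treated one. The same library was the highest of its group for Tnfrsf1b (382 CPM against 210 to 234), Tnfrsf9 (151 against 83.0 to 119) and Tnfrsf18 (152 against 72.5 to 94.3). With all 4 PBS libraries, the log2 changes after mIL-2 were 0.46 ± 0.24 for Tnfrsf4 and 0.57 ± 0.17 for Tnfrsf18 (adjusted p = 0.189 and 0.0243). Without PBS replicate 4 they were 0.91 and 0.82 (adjusted p = 8.03e-06 and 0.000162), and after FP 0.65 and 0.61 (adjusted p = 0.000235 and 0.00296). The count of members changed at 1.5 h became 3 of 9 for mIL-2 and 3 of 9 for FP without it, in fits that called 2416 and 1099 of all genes, against 2360 and 1110 with it.

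At 4 h the spread between libraries was wider still. Tnfrsf4 had 496, 423 and 205.5 CPM after FP and 460.0, 289.5, 217 and 183.5 CPM after mIL-2, against 198.5, 187 and 114 CPM in PBS libraries. Tnfrsf18 had 331, 296 and 126 CPM after FP and 287, 166, 121 and 114 CPM after mIL-2, against 160.5, 134 and 78.1 CPM in PBS libraries. Replicates 1 and 2 were high and replicate 4 was low in all 3 groups for both genes, and same-numbered libraries of FP and PBS deviated together over all genes, with correlations of 0.205 to 0.836 over the 3 pairs. With the replicate number as a block, 2 of 9 members changed after FP, Tnfrsf4 by 1.11 (adjusted p = 0.00136) and Tnfrsf18 by 0.97 (adjusted p = 0.00339), while the share of all genes called in that fit was 5.64%, against 0.913% without the block. By the sample labels all 3 PBS libraries and 1 of the 3 FP libraries were in lane 2 and the other 2 FP libraries in lane 1. Among the libraries compared, lane 1 held FP libraries only. With lane as a covariate the FP effect rests on the 1 FP library in lane 2, so that fit cannot separate lane from FP. Without the block Tnfrsf4 had a log2 change of 1.17 ± 0.41 (adjusted p = 0.156) and Tnfrsf18 of 1.01 ± 0.44 (adjusted p = 0.268). FP and mIL-2 differed for 0 of 9 members at 4 h, with 0% of 17636 genes called, 482 at an unadjusted p under 0.05 and 4 by DESeq2, and for 0 of 9 at 1.5 h, with 0% of 16643 genes called, 970 at an unadjusted p under 0.05 and 1 by DESeq2. Of the members, 0 at 4 h and 1 at 1.5 h (Cd27) had an unadjusted p under 0.05, and DESeq2 called 0 at either time.

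Over the 13 treated groups Tnfrsf4 and Tnfrsf18 were each other's nearest neighbour among 9477 genes: the Pearson correlation of their log2 changes from PBS was 0.951. The 13 groups are not independent, since several share a PBS group. For Tnfrsf4 the next genes were Akr1b3 (0.929) and Acat2 (0.912), and for Tnfrsf18 they were Commd7 (0.928) and Nudt16l1 (0.911). An exon of Tnfrsf18 overlaps the antisense gene Gm16008, and whether reads were counted by strand is not given in the sources used here, so reads of that pair cannot be told apart.

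**Figure D3:**
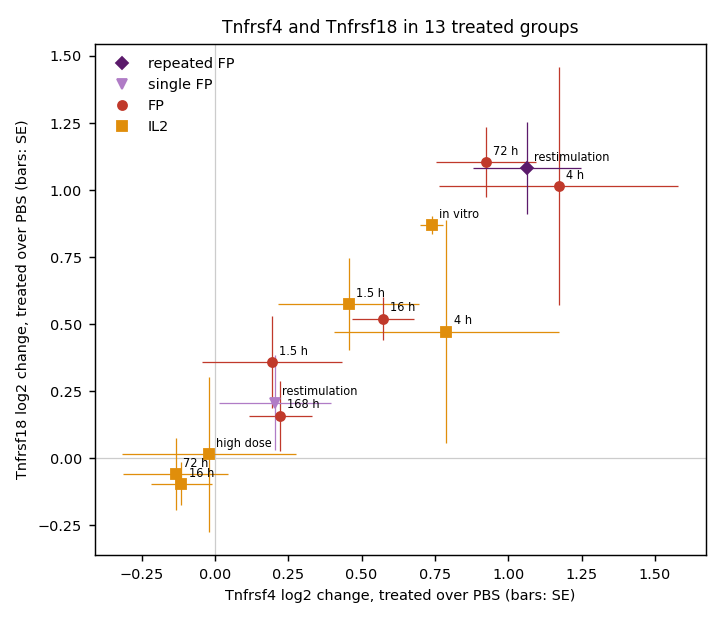
Log2 change of Tnfrsf18 against that of Tnfrsf4 in the 13 treated groups, each over its own PBS group, with SE bars and the table named beside each point. FP at 4 h and 72 h and repeated FP lie at the upper right, and mIL-2 at 16 h and 72 h and the high dose lie near 0 (Pearson r = 0.951).

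Tnfrsf9 encodes 4-1BB, a receptor that T cells raise after activation, and Tnfrsf1b encodes TNFR2, the TNF receptor without a death domain, which marks activated Tregs. Tnfrsf9 lies at chr4:150914562-150946102 on the plus strand and Tnfrsf1b at chr4:145213463-145246870 on the minus strand. Of the 2 RefSeq windows for Tnfrsf9, the one at chr4:150927749-150928048 (plus strand, GRCm38.p6) is shown because it is the only member window that holds both motifs. Capitals mark the STAT5 match, which starts at -136, and the stretch with 2 overlapping NF-kB matches, which start at -43 and -42.
Tnfrsf9: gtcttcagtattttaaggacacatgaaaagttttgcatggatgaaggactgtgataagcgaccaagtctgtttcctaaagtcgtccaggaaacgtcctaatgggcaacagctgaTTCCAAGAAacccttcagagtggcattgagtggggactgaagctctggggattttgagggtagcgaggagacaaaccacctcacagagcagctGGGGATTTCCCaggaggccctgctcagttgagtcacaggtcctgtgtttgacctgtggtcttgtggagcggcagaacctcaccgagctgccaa
The other Tnfrsf9 window holds neither motif, and the Tnfrsf1b window holds 1 STAT5 match.

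Both genes rose after FP at 72 h. Tnfrsf9 had 277, 262.5, 233 and 156 CPM after FP, against 112.5, 96.7 and 85.9 CPM in PBS libraries, a log2 change of 1.24 ± 0.17 (adjusted p = 0.000119) and the largest of the 9 in that comparison. Tnfrsf1b had 404, 462, 399.5 and 362 CPM after FP, against 282, 242 and 214 CPM in PBS libraries, a log2 change of 0.72 ± 0.11 (adjusted p = 0.000222). Every FP library was above every PBS library for both. The mIL-2 libraries at 72 h had 88.8, 89.2 and 97.3 CPM of Tnfrsf9 and 254, 251 and 257.5 CPM of Tnfrsf1b, inside the PBS range for both, and FP exceeded mIL-2 by 1.34 ± 0.17 for Tnfrsf9 (adjusted p = 7.13e-05) and 0.68 ± 0.11 for Tnfrsf1b (adjusted p = 0.000352).

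At 16 h Tnfrsf9 had 112 to 129 CPM after FP and 84.6 to 111 CPM in PBS libraries, a log2 change of 0.31 ± 0.09 that missed the threshold (adjusted p = 0.0129). It passed with DESeq2 (0.35, adjusted p = 0.00276), with DESeq2's size factors, without the low-count filter, and without PBS replicate 3 (0.45, adjusted p = 0.000516) or FP replicate 3 (0.37, adjusted p = 0.00927). It passed against mIL-2 (0.38 ± 0.09, adjusted p = 0.00352). That call was lost without FP replicate 2 (0.33, adjusted p = 0.0151) or mIL-2 replicate 4 (0.31, adjusted p = 0.0165). Tnfrsf1b had 236 to 253 CPM after FP within the 169 to 289 CPM of the PBS libraries at 16 h. The FP effect grew between 16 h and 72 h by 0.92 ± 0.20 for Tnfrsf9 (adjusted p = 0.00159) and by 0.68 ± 0.17 for Tnfrsf1b (adjusted p = 0.00413). Leaving out any of 7 single libraries of the 16 h and 72 h tables took the count of members in this contrast to 2 of 9, since Tnfrsf1b and Tnfrsf18 then missed the threshold. At 168 h Tnfrsf9 averaged 138 ± 17.3 CPM after FP and 122 ± 7.60 CPM in PBS libraries, and its FP effect was lower than at 72 h by -1.05 ± 0.22 (adjusted p = 0.00282). Without PBS replicate 2 or 3 of the 72 h table or PBS replicate 3 of the 168 h table that difference had adjusted p-values of 0.012, 0.0152 and 0.0101. Tnfrsf1b at 168 h had 387, 328, 398 and 277 CPM after FP, against 238, 268 and 327 CPM in PBS libraries, and the groups overlapped (log2 change 0.32, 95% interval 0.00 to 0.65, adjusted p = 0.336).

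**Figure D4:**
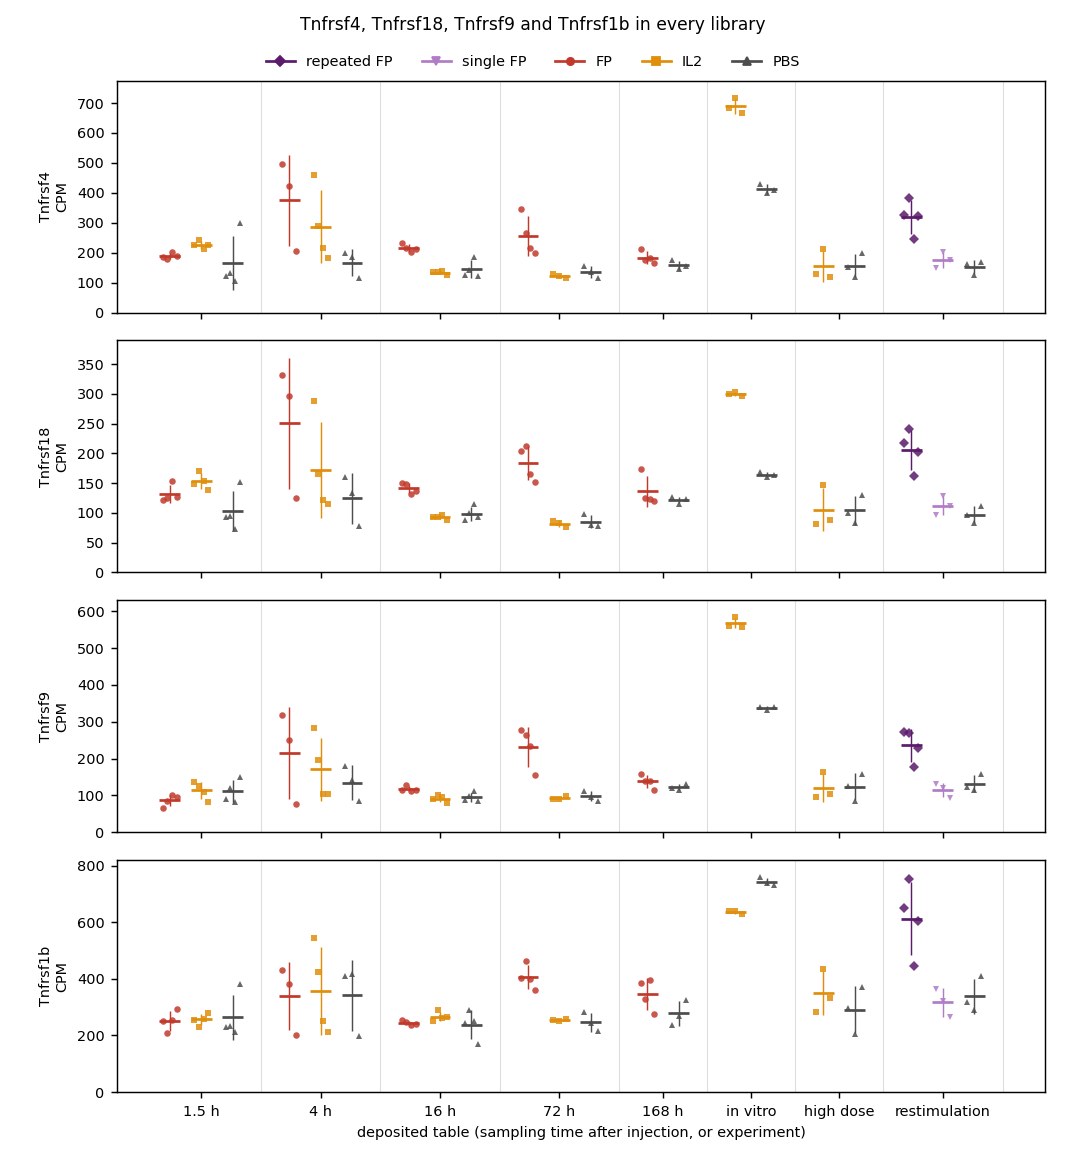
CPM of Tnfrsf4, Tnfrsf18, Tnfrsf9 and Tnfrsf1b in every library with a group, by table and, within a table, from repeated FP, single FP, FP and IL2 to PBS. Points are libraries, horizontal lines means and vertical lines 1 SD. FP libraries at 72 h and repeated FP libraries lie above their PBS libraries for all 4 genes, and the 4 h groups are spread widely.

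Within groups these 4 genes moved together from library to library. In 44 of the 73 libraries with a group, Tnfrsf1b, Tnfrsf4, Tnfrsf9 and Tnfrsf18 all lay above, or all below, the mean of their group. At 4 h this was so in 9 of 10 libraries and in the high dose table in 5 of 6, while at 72 h it was so in 5 of 10. The set of 4 was put together after its values were seen, and the counts are a description. Other sets of genes were not counted in this way, so whether the pattern is particular to these 4 was not tested. Median coefficients of variation within groups at 4 h were 36.5% to 50.1% for these 4 genes and lower for each of the other 5, from 8.91% for Tnfrsf14 upward.

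After repeated FP the libraries also lay above the other groups of their table for these 4 genes, without passing the threshold. Tnfrsf4 had 325, 382, 245 and 321 CPM after repeated FP and 148, 203 and 175 CPM after single FP, against 162, 124 and 171 CPM in PBS libraries. Tnfrsf18 had 218, 241, 161 and 203 CPM after repeated FP and 95.9, 128 and 112 CPM after single FP, against 96.4, 82.8 and 112 CPM in PBS libraries. For both genes all 4 repeated FP libraries lay above all single FP and PBS libraries.

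Tnfrsf9 had 272, 268, 177 and 227 CPM after repeated FP and 130, 121 and 91.8 CPM after single FP, against 123, 114 and 159 CPM in PBS libraries. Tnfrsf1b had 650.0, 753, 444.5 and 605 CPM after repeated FP and 365, 320.1 and 265 CPM after single FP, against 317, 289 and 409 CPM in PBS libraries. Again no repeated FP library overlapped the other groups, though the share of all genes without such overlap was not counted. None of these differences passed the threshold of 0.01 in edgeR: repeated FP changed 0 of 9 members against PBS (0.629% of all genes) and 0 of 9 against single FP (0.585% of all genes). For each comparison 5 members had an unadjusted p under 0.05, and DESeq2 called 4 in each, namely Tnfrsf1b, Tnfrsf4, Tnfrsf9 and Tnfrsf18. Over all 17953 genes, 3900 against PBS and 3540 against single FP had an unadjusted p under 0.05, and DESeq2 called 4.1% and 3.05%.

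The edgeR log2 changes of repeated FP over PBS were 1.06 ± 0.18 for Tnfrsf4 (adjusted p = 0.0146), 1.083 ± 0.17 for Tnfrsf18 (0.0106), 0.84 ± 0.20 for Tnfrsf9 (0.0406) and 0.86 ± 0.20 for Tnfrsf1b (0.0422). Over single FP they were 0.86 ± 0.18 for Tnfrsf4 (adjusted p = 0.0383), 0.87 ± 0.17 for Tnfrsf18 (0.0277), 1.05 ± 0.20 for Tnfrsf9 (0.0243) and 0.95 ± 0.20 for Tnfrsf1b (0.0375). Leaving out repeated FP replicate 3, the lowest library for all 4 genes, gave 2 of 9 members changed against PBS, Tnfrsf4 (1.14, adjusted p = 0.00846) and Tnfrsf18 (1.15, adjusted p = 0.00686), in a fit that called 137 of all genes, against 113 with every library and 3 without PBS replicate 2. Myeloid markers summed to 39.4 to 97.8 CPM in repeated FP libraries and 194 to 210 CPM in single FP libraries, against 102 to 189 CPM in PBS libraries (10 of 14 markers in the table), and their part was not tested. Single FP changed 0 of 9 members against PBS (0.0111% of all genes), with 0 at an unadjusted p under 0.05 and 0 by DESeq2. Its 95% intervals reached 0.63 for Tnfrsf4 and 0.60 for Tnfrsf18 on the log2 scale. The Treg identity sum was 3460 to 5050 CPM in single FP libraries (median 4910), against 3430 to 3650 CPM in PBS libraries. The lowest single FP library thus lay within the PBS range. Leaving out a single library gave 1 to 31 genes called for single FP against PBS, and 2 were called with every library. How far the single FP comparisons rest on that lowest library was not tested.

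In vitro, where the spread between libraries was smallest, IL-2 raised Tnfrsf4, Tnfrsf9 and Tnfrsf18 within 1.5 h. Tnfrsf4 had 682, 717.5 and 666 CPM with IL-2, against 430.4, 398 and 409 CPM with PBS (log2 change 0.74 ± 0.04, adjusted p = 1.53e-14). Tnfrsf9 had 561, 583 and 558 CPM with IL-2, against 341, 333 and 339 CPM with PBS (0.75 ± 0.04, adjusted p = 1.47e-15). Tnfrsf18 had 299.8, 303.5 and 296 CPM with IL-2, against 168, 160.3 and 164 CPM with PBS (0.87 ± 0.04, adjusted p = 6.87e-17). Tnfrsf1b went the other way, with 639.5, 640.3 and 628 CPM with IL-2, against 759.5, 739.5 and 734 CPM with PBS (-0.23 ± 0.03, adjusted p = 1.06e-05). None of the 4 genes' groups overlapped. The myeloid sum was 171 to 185 CPM with IL-2 and 163 to 172 CPM with PBS in this table.

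Cd27 encodes the receptor for CD70, a costimulatory receptor of resting and memory lymphocytes, and it fell. It lies at chr6:125232622-125237010 on the minus strand. At 1.5 h it had 156, 168.5, 163 and 211 CPM after FP and 117, 150, 148 and 159 CPM after mIL-2, against 230.5, 268, 255 and 210.3 CPM in PBS libraries. All mIL-2 libraries lay below all PBS libraries, and FP replicate 4 overlapped with PBS. The log2 change was -0.75 ± 0.12 after mIL-2 (adjusted p = 0.00032) and -0.47 ± 0.12 after FP (adjusted p = 0.0161).

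At 16 h Cd27 had 234, 218, 206 and 211 CPM after FP and 307.5, 294, 307 and 302 CPM after mIL-2, against 285, 355, 394 and 287 CPM in PBS libraries. FP libraries were below both other groups without overlap, by -0.60 ± 0.09 against PBS (adjusted p = 5.82e-05) and -0.48 ± 0.09 against mIL-2 (adjusted p = 0.000488). The mIL-2 effect was thus smaller at 16 h than at 1.5 h: its change between the times was 0.63 ± 0.16 (adjusted p = 0.00446), and 2 of 9 members passed that test, Cd27 higher and Tnfrsf25 lower, against 12.8% of all genes. Leaving out single libraries of these tables took that count to between 1 and 4, with 1 left after removing any of 7 libraries, PBS or mIL-2, and 4 after removing PBS replicate 4 of the 1.5 h table, when Tnfrsf4 and Tnfrsf18 joined.

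At 72 h Cd27 had 212, 240, 246 and 208 CPM after FP and 251, 255 and 253 CPM after mIL-2, against 254, 268 and 246 CPM in PBS libraries, and the FP libraries overlapped with PBS (log2 change -0.17, 95% interval -0.36 to 0.01, adjusted p = 0.108). At 168 h FP libraries had 316, 296, 301 and 301 CPM, against 291, 235 and 267 CPM in PBS libraries, above them without overlap but with a log2 change of 0.20 ± 0.09 that did not pass (adjusted p = 0.357). In vitro IL-2 lowered it within 1.5 h, to 187, 195 and 196 CPM with IL-2, against 293, 266 and 272 CPM with PBS (-0.52 ± 0.04, adjusted p = 2.4e-11). The exon of Cd27 that overlaps the microRNA gene Mir8113 lies on the same strand, and the 2 cannot be told apart there.

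Tnfrsf14 encodes HVEM, which binds LIGHT and the inhibitory receptor BTLA, and it lies at chr4:154921933-154928563 on the minus strand. It was lower after FP at 16 h, with 48.5, 46.3, 44.3 and 45.5 CPM after FP and 59.8, 59.6, 59.0 and 57.8 CPM after mIL-2, against 54.85, 60.04, 56.67 and 54.49 CPM in PBS libraries. The FP libraries lay below the other groups, by -0.29 ± 0.06 against PBS (adjusted p = 0.00128) and -0.35 ± 0.06 against mIL-2 (adjusted p = 0.000213). Without FP replicate 3 the difference from PBS was -0.24 (adjusted p = 0.0109). At 72 h the difference was of like size and did not pass (-0.34 ± 0.11 against PBS, adjusted p = 0.0215, and -0.37 ± 0.11 against mIL-2, adjusted p = 0.0145). FP and mIL-2 replicates of that table deviate together by number, and with the replicate number as a block the difference from mIL-2 was -0.41 (adjusted p = 0.00195). In vitro it had 26.6, 26.7 and 28.1 CPM with IL-2, against 35.1, 34.0 and 31.1 CPM with PBS (-0.30 ± 0.06, adjusted p = 0.00075).

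Fas, the death receptor for Fas ligand, was lower in one condition and higher in another. It lies at chr19:34290666-34327772 on the plus strand, and its RefSeq promoter window at chr19:34290409-34290708 (plus strand, GRCm38.p6) is shown because Fas held the largest log2 change of the 9 genes in any comparison. The window has 1 STAT5 match, in capitals, which starts at -93.
Fas: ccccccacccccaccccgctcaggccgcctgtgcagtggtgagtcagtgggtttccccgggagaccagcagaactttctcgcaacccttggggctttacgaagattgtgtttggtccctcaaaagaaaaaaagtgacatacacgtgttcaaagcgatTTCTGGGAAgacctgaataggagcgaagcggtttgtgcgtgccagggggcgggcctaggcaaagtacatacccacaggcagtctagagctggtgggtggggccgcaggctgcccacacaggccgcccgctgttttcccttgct
In vitro Fas had 99.5, 95.8 and 91.7 CPM with IL-2, against 30.2, 31.3 and 30.9 CPM with PBS, a log2 change of 1.64 ± 0.05 (adjusted p = 1.28e-19), which is a 3.11-fold level.

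In animals at 1.5 h mIL-2 gave Fas 30.7, 26.0, 32.6 and 25.5 CPM, against 32.5, 37.7, 37.2 and 30.0 CPM in PBS libraries, with overlap. The IL-2 effect in vitro exceeded that in animals by 1.89 ± 0.20 on the log2 scale (adjusted p = 6.46e-06), and Fas was the 1 of 9 members that passed this test, against 4.96% of all genes. For Cd27 the effects in vitro and in animals at 1.5 h were -0.52 and -0.75.

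At 16 h Fas was lower after FP, with 22.7, 21.7, 20.1 and 20.5 CPM after FP and 31.0, 31.4, 33.0 and 31.6 CPM after mIL-2, against 29.2, 30.8, 40.1 and 44.7 CPM in PBS libraries. FP libraries lay below both groups, by -0.77 ± 0.12 against PBS (adjusted p = 4.93e-05) and -0.58 ± 0.12 against mIL-2 (adjusted p = 0.000672). At 72 h FP libraries had 35.6, 39.8, 33.0 and 32.3 CPM, against 31.2, 29.1 and 26.8 CPM in PBS libraries, above them without overlap (0.28 ± 0.11, adjusted p = 0.0474). The FP effect on Fas differed between 72 h and 16 h by 1.04 ± 0.17 (adjusted p = 9.02e-05). At 168 h Fas averaged 34.0 ± 4.87 CPM after FP and 35.0 ± 5.52 CPM in PBS libraries.

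Tnfrsf25 encodes DR3, the death-domain receptor for TL1A, known for its effect on Treg numbers when it is engaged, and it lies at chr4:152115934-152120119 on the plus strand. At 72 h it fell after FP, to 37.1, 43.4, 41.7 and 52.7 CPM after FP and 70.3, 68.9 and 60.7 CPM after mIL-2, against 66.3, 73.4 and 65.8 CPM in PBS libraries. All FP libraries lay below the other groups, by -0.65 ± 0.11 against PBS (adjusted p = 0.000611) and -0.61 ± 0.11 against mIL-2 (adjusted p = 0.000934). At 16 h it had 71.3, 67.0, 68.5 and 71.3 CPM after FP, against 74.3, 86.4, 103.7 and 84.6 CPM in PBS libraries (-0.33 ± 0.09, adjusted p = 0.00729). That call was lost when any of PBS replicates 2 or 3 or any 1 FP library was left out, with the weakest value without PBS replicate 3 (-0.18, adjusted p = 0.067). It was also lost in DESeq2 (adjusted p = 0.0116) and with DESeq2's size factors in edgeR (0.0163). The same held without the low-count filter (0.0243) and with only the 2 groups compared (0.0278).

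At 1.5 h Tnfrsf25 was on the high side, with 85.3, 60.8, 67.8 and 81.2 CPM after FP and 74.9, 74.8, 72.0 and 95.4 CPM after mIL-2, against 63.2, 57.5, 61.3 and 62.3 CPM in PBS libraries. The mIL-2 libraries lay above PBS without overlap (0.38 ± 0.11, adjusted p = 0.0251). The mIL-2 effect at 16 h was lower than at 1.5 h by -0.61 ± 0.15 (adjusted p = 0.00378). For FP the same difference in time was -0.58 ± 0.15 (adjusted p = 0.0129). Of the members, 0 of 9 passed the test of the FP effect at 16 h against 1.5 h (4.98% of all genes). An unadjusted p under 0.05 was found for 3 members and for 3860 of all 17580 genes. DESeq2 called 1 member, Tnfrsf25, and 6.67% of all genes. Between 72 h and 168 h the FP effect on Tnfrsf25 changed by 0.60 ± 0.14 (adjusted p = 0.00851), a call that was lost in 11 of the single-library omissions. In vitro it had 35.2, 34.7 and 35.8 CPM with IL-2, against 39.8, 35.1 and 34.8 CPM with PBS, the 1 member not changed there.

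Tnfrsf1a encodes the death-domain receptor TNFR1 and lies at chr6:125349362-125362484 on the plus strand. In animals its log2 changes from PBS lay between -0.44 in the high dose table and 0.18 after repeated FP, and none passed with all libraries. After FP at 16 h the change from PBS was -0.28 (adjusted p = 0.0147), and without PBS replicate 4 it was -0.36 (adjusted p = 0.000932). It was lower after FP than after mIL-2 at 16 h, with 38.0, 33.2, 36.9 and 36.2 CPM after FP, against 47.2, 43.2, 44.5 and 44.8 CPM after mIL-2 (-0.32 ± 0.09, adjusted p = 0.00685), a call lost in 7 of the 8 single-library omissions and with the other scaling. In vitro it had 27.0, 27.5 and 29.7 CPM with IL-2, against 36.4, 33.1 and 37.5 CPM with PBS (-0.34 ± 0.06, adjusted p = 0.000203).

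**Figure D5:**
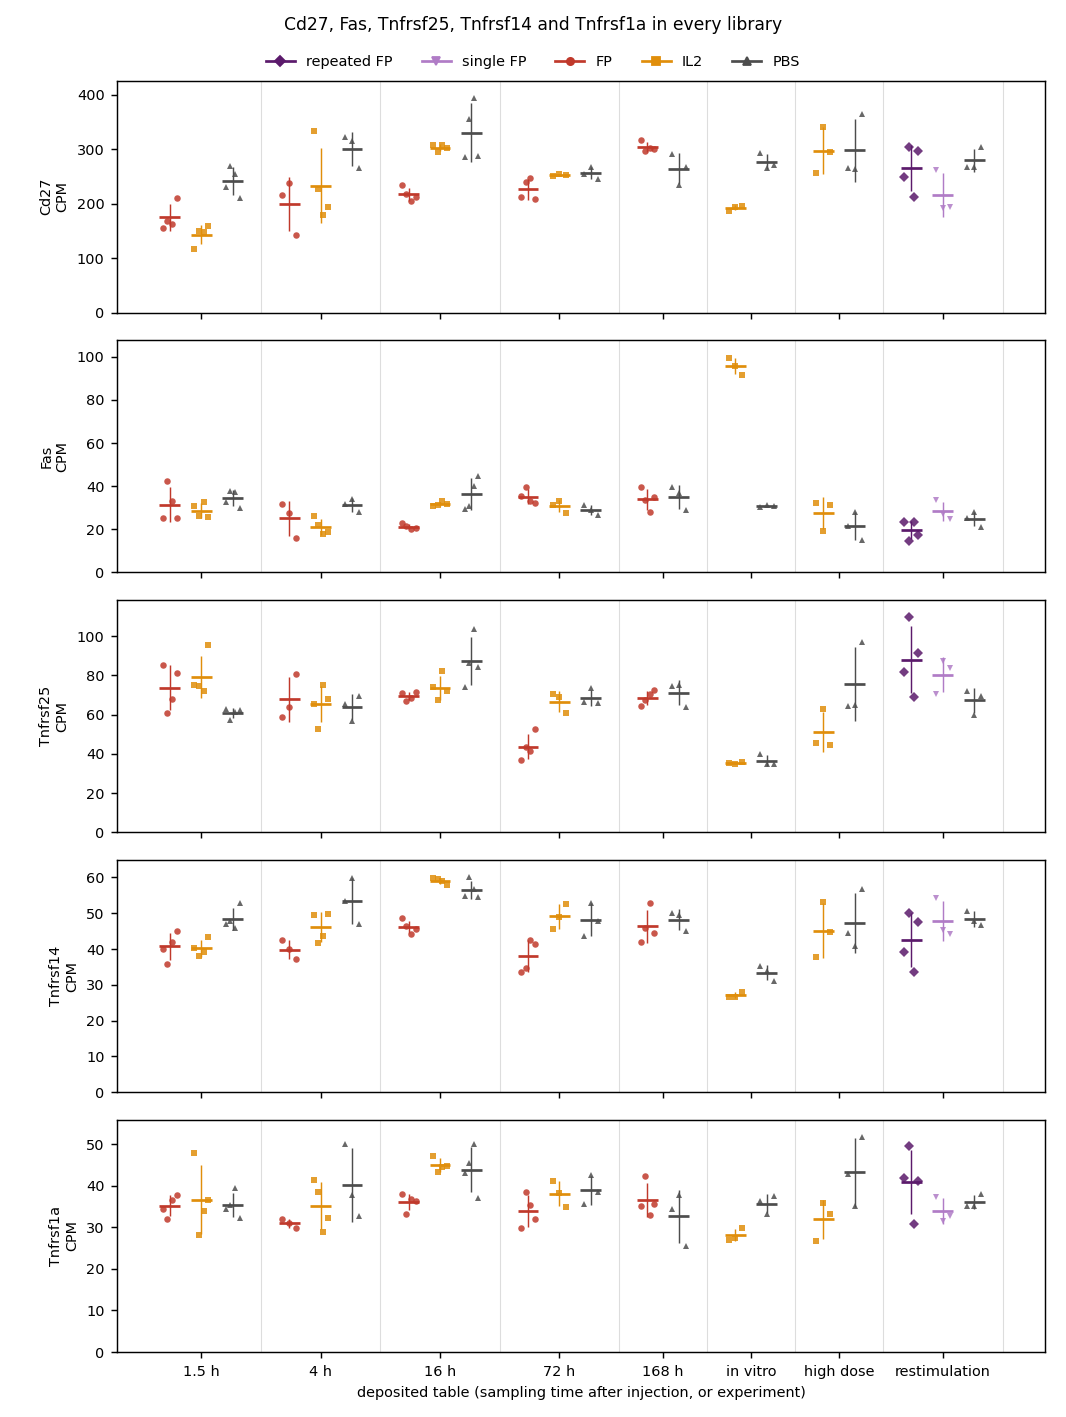
CPM of Cd27, Fas, Tnfrsf25, Tnfrsf14 and Tnfrsf1a in every library with a group, by table and, within a table, from repeated FP, single FP, FP and IL2 to PBS. Points are libraries, horizontal lines means and vertical lines 1 SD. Fas stands out in vitro, where IL-2 libraries lie at 91.7 to 99.5 CPM above PBS at 30.2 to 31.3 CPM, Cd27 in mIL-2 libraries at 1.5 h lies below all PBS libraries, and Tnfrsf25 is low after FP at 72 h.

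Among the remaining values at 4 h and after repeated FP, none passed. Tnfrsf9 at 4 h had 318, 249.3 and 77.7 CPM after FP and 282, 195, 104 and 103 CPM after mIL-2, against 179, 140 and 85.1 CPM in PBS libraries, with wide overlap. Cd27 at 4 h had 217, 238 and 143 CPM after FP, against 322, 316 and 265 CPM in PBS libraries, below them without overlap (log2 change -0.59 ± 0.27, adjusted p = 0.28). Fas had 23.2, 14.8, 23.2 and 17.4 CPM after repeated FP, against 33.4, 26.9 and 24.6 CPM after single FP, also without overlap (-0.53 ± 0.19, adjusted p = 0.164).

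High dose mIL-2 changed 0 of 9 members, with 0% of 16668 genes called. For all genes 2743 had an unadjusted p under 0.05 and DESeq2 called 549, while among the members both counts were 0. Tnfrsf25 had 45.8, 63.0 and 44.7 CPM after high dose mIL-2, against 64.5, 64.9 and 97.3 CPM in PBS libraries, below them without overlap (-0.56, 95% interval -1.13 to 0.01, adjusted p = 0.308). For Tnfrsf4 and Tnfrsf18 the 95% intervals of -0.72 to 0.68 and -0.68 to 0.71 left room for changes as large as those after FP at 16 h.

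The ligands of the family were read from a list of 17 genes. Counts in this and the other lists stand against shares of all genes called of 14.2% after mIL-2 and 6.67% after FP at 1.5 h, 28.8% at 16 h and 30.4% at 72 h after FP, and 13.9% in vitro. At 1.5 h 5 of 14 tested ligands rose after mIL-2 and 5 of 14 after FP, with none lower and medians of 0.40 and 0.35 against -0.01 for all genes. Lta, which encodes lymphotoxin alpha, averaged 150 ± 16.1 CPM after FP and 177 ± 23.4 CPM after mIL-2, against 22.4 ± 2.77 CPM in PBS libraries (SD, n = 4 each), log2 changes of 2.75 ± 0.12 and 2.99 ± 0.12. Tnf averaged 91.2 ± 19.0 CPM after FP and 107 ± 35.9 CPM after mIL-2, against 25.9 ± 5.82 CPM in PBS libraries, and Tnfsf11, which encodes RANKL, rose as well. At 4 h 2 of 12 ligands rose after FP (0.913% of all genes), Lta (2.75 ± 0.26, adjusted p = 0.00109) and Tnf (1.83 ± 0.30, adjusted p = 0.00994). After mIL-2 at 4 h 1 of 12 rose (0.652% of all genes), Lta (1.88 ± 0.24, adjusted p = 0.00451). Lane 1 of the 4 h comparison held FP libraries only, so lane and FP cannot be fully told apart there. At 16 h after FP 2 of 13 rose and 5 fell: Lta (1.084 ± 0.13) and Tnf (0.76 ± 0.11) were higher, and Fasl, the ligand of Fas, averaged 5.16 ± 0.48 CPM after FP and 8.44 ± 0.87 CPM in PBS libraries (-0.71 ± 0.14, adjusted p = 0.000593).

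At 72 h after FP 2 of 15 ligands rose and 4 fell (30.4% of all genes changed). Tnfsf10, which encodes TRAIL, averaged 111 ± 7.20 CPM after FP and 62.9 ± 4.81 CPM in PBS libraries (0.83 ± 0.08, adjusted p = 1.04e-05), and Cd40lg fell (-0.87 ± 0.15, adjusted p = 0.000632). At 168 h Lta was the 1 of 12 ligands that changed, at 14.6 ± 0.21 CPM after FP and 38.6 ± 2.42 CPM in PBS libraries (-1.40 ± 0.10, adjusted p = 4.51e-05). Between repeated and single FP Fasl was the 1 of 12 that changed, at 12.8 ± 1.66 CPM after repeated FP and 5.78 ± 0.29 CPM after single FP (1.15 ± 0.16, adjusted p = 0.00748). In vitro 4 of 14 ligands rose with IL-2 and 2 fell (13.9% of all genes changed). Lta (2.15 ± 0.07, adjusted p = 2.39e-18) and Tnf (0.25 ± 0.05, adjusted p = 0.000893) were among the higher ones, and Tnfsf11 was lower (-0.49 ± 0.06, adjusted p = 9.19e-07).

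Of 19 other receptors of the family, 12 to 14 were tested in the animal tables up to 72 h and in vitro. Tnfrsf13b, which encodes TACI, rose at 1.5 h, with 57.5 ± 3.79 CPM after FP and 62.8 ± 5.50 CPM after mIL-2, against 35.6 ± 1.58 CPM in PBS libraries. Tnfrsf8, which encodes CD30, rose after FP at 16 h (24.4 ± 4.28 CPM after FP and 12.9 ± 5.05 CPM in PBS libraries, 0.92 ± 0.22, adjusted p = 0.00279). At 72 h 3 of 13 rose and 3 fell after FP. Tnfrsf21, which encodes DR6, was one of those that fell, with 1.04 ± 0.48 CPM after FP and 14.4 ± 7.55 CPM in PBS libraries (-3.79 ± 0.41, adjusted p = 2.02e-05). The myeloid sum was lower in the same 72 h libraries, and its part in the fall of Tnfrsf21 was not tested.

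Downstream, the adaptors and ubiquitin ligases moved both ways. At 1.5 h Traf6 and Ripk1, the kinase scaffold of TNFR1 signalling, rose, with log2 changes of 0.93 ± 0.14 and 0.91 ± 0.12 after FP and 1.04 ± 0.14 and 0.93 ± 0.12 after mIL-2. At 16 h after FP 2 of 14 rose and 5 fell: Traf6 (0.76 ± 0.07) and Ripk1 (0.47 ± 0.06) were higher, and Traf1 (-0.66 ± 0.07), Birc2 (-0.59 ± 0.09) and Birc3 (-0.51 ± 0.06), which encode TRAF1 and the ligases cIAP1 and cIAP2, were lower. In vitro Traf6 (0.84 ± 0.04) and Ripk1 (0.72 ± 0.04) rose and Traf1 (-0.41 ± 0.04) and Birc2 (-0.22 ± 0.04) fell.

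The list of death-domain signalling genes had 8 members, of which Tradd and Ripk1 are also in the adaptor list. Casp8, which encodes caspase-8, averaged 459 ± 37.0 CPM after FP and 491 ± 12.3 CPM after mIL-2 at 1.5 h, against 206 ± 7.32 CPM in PBS libraries, log2 changes of 1.16 ± 0.07 and 1.25 ± 0.07. At 72 h after FP 5 of 8 rose and 1 fell: Ripk3 (1.59 ± 0.14, adjusted p = 5.46e-06), which encodes a kinase of necroptosis, was among the higher ones, and Cflar, which encodes the caspase-8 inhibitor c-FLIP, was lower, at 203 ± 27.7 CPM after FP and 279 ± 6.97 CPM in PBS libraries (-0.46 ± 0.10, adjusted p = 0.00308). At 16 h after FP 4 of 8 rose and 1 fell, again Cflar (-0.37 ± 0.07, adjusted p = 0.000789).

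Among 13 NF-kB factors and kinases, FP gave 0 higher and 3 lower at 16 h, with Relb at -0.67 ± 0.09, Map3k14 (the kinase NIK) at -0.39 ± 0.10 and Nfkb2 at -0.34 ± 0.08. These 3 of 13 are no larger a share than the 28.8% of all genes called. At 72 h 1 rose, Nfkb1 (0.39 ± 0.08), and 3 fell, Rel (-0.62 ± 0.09), Map3k14 (-0.60 ± 0.10) and Relb (-0.48 ± 0.07). Of 12 inhibitors and feedback genes of NF-kB, 1 was higher and 5 were lower after FP at 16 h. Nfkbiz, which encodes an atypical IkB family protein, rose at 1.5 h (1.15 ± 0.19 after FP and 1.33 ± 0.19 after mIL-2) and in vitro (0.95 ± 0.04). Tnip1 and Nfkbie fell in these 3 comparisons and after FP at 16 h.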

How the data were processed

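Sorted splenic Tregs were profiled by ribosomal-RNA-depleted RNA sequencing from 25 ng of total RNA, per the labels' protocols. The deposited values are raw counts per gene in 8 tables; the authors aligned reads with STAR 2.5.0 to GRCm38 and counted them with featureCounts 1.5.0, per the submitters' processing notes, and every deposited row reached 0.5 CPM in at least 3 columns. Strand settings are not given in the sources used here. Repeat runs of the 72 h and in vitro libraries were summed.

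Each table was fitted alone with edgeR 4.0.16 (R 4.3.3): TMM, filterByExpr, quasi-likelihood F test, Benjamini-Hochberg adjustment over all genes tested, called at an adjusted p under 0.01. Differences between tables were interaction contrasts in a joint fit. DESeq2 1.42.0 was an alternative. CPM per kb uses exon lengths of the annotation. Replicate numbers paired libraries (every correlation of same-numbered deviations over 0.1) for FP and mIL-2 against PBS at 4 h, and for mIL-2 against PBS and FP against mIL-2 at 72 h. Depth was 12.2 M to 46.1 M counts per library, and 2 libraries at 4 h with contradicting labels entered no comparison.

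The members and the gene lists were chosen with earlier results of these data known. All 9 members were tested in each comparison. Genes named from a list are among the up to 3 called in a direction with the largest log2 change and a mean of at least 5 CPM. Not every gene that meets this rule is named in the text. Genes most like a member by correlation over the 13 treated groups are named as well. One gene of the death-domain signalling list is not reported by name here.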

Additional observations from a re-analysis of the deposited data

Results flagged for a closer look

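In groups of 4 libraries, 6 of 90 values tested had 1 library whose gap to its nearest neighbour took up more than 0.829 of the group's range, where chance gives about 1 in 20 groups. At 1.5 h PBS replicate 4 was far above the other PBS libraries for Tnfrsf4 (299 CPM against 107 to 132, a ratio of 0.866) and Tnfrsf1b (382 CPM against 210 to 234, 0.865). FP replicate 3 at 1.5 h was high for Tnfrsf18 (0.855), and mIL-2 replicate 4 at 1.5 h was high for Tnfrsf25 (0.872). At 16 h mIL-2 replicate 4 was low for Tnfrsf4 (0.921), and at 168 h FP replicate 1 was high for Tnfrsf18 (0.916).

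The remaining results were picked out because an effect differed between conditions in its own test. The FP effect at 72 h minus that at 16 h was 0.682 for Tnfrsf1b, 0.923 for Tnfrsf9, 0.58 for Tnfrsf18 and 1.043 for Fas on the log2 scale. The FP effect at 168 h minus that at 72 h was -1.055 for Tnfrsf9, -0.942 for Tnfrsf18 and 0.595 for Tnfrsf25. The mIL-2 effect at 16 h minus that at 1.5 h was -0.613 for Tnfrsf25 and 0.628 for Cd27. The IL-2 effect in vitro minus that in animals at 1.5 h was 1.891 for Fas.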

How the results depend on the processing

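No alternative reversed a called value of a member. Shares of all genes called at an adjusted p under 0.05 are not reported here, so member counts at that threshold have no background beside them. At an adjusted p under 0.05 the count of members called became 4 for mIL-2 against PBS at 1.5 h, 1 for FP against PBS at 1.5 h, 4 for repeated FP against PBS, 4 for repeated against single FP, 1 for the FP effect at 16 h minus 1.5 h, 5 for the FP effect at 168 h minus 72 h and 4 for the mIL-2 effect at 16 h minus 1.5 h. DESeq2 gave 2, 1, 4 and 4 for the first 4 of these, where it called 18.4%, 10.2%, 4.1% and 3.05% of all genes. It gave 1 and 4 for the FP and mIL-2 effects at 16 h minus 1.5 h (6.67% and 15.6% of all genes). DESeq2's size factors in edgeR gave 1 for repeated FP against PBS (0.696% of all genes). The replicate number as a block gave 2 for FP against PBS at 4 h, where the numbers pair the libraries, and 1 for the FP effect at 16 h minus 1.5 h, where they do not. It also called Tnfrsf9 for FP against PBS at 16 h, as did DESeq2, DESeq2's size factors, no low-count filter and 2 single-library omissions. It called Tnfrsf14 for FP against PBS at 72 h, as did the first run alone, and Fas there. The numbers do not pair the libraries in either comparison. A tag in the 4 h column names as a covariate was chosen after seeing the data. It gave 1 for mIL-2 (7.1% of all genes) and 3 for FP against PBS (9.55%). Leaving out 1 library at a time gave 1 to 3 calls for mIL-2 (1642 to 2416 of all genes) and 0 to 3 for FP (689 to 1099) against PBS at 1.5 h. It gave 0 to 2 for repeated FP against PBS (3 to 137). For the FP effect it gave 0 to 1 at 16 h minus 1.5 h (675 to 981) and 2 to 5 at 72 h minus 16 h (1996 to 3532). At 168 h minus 72 h it gave 0 to 4 (864 to 2079). For the mIL-2 effect at 16 h minus 1.5 h it gave 1 to 4 (1885 to 2512). The cause of these ranges was not tested. FP against PBS gave 5 to 7 calls at 16 h (3992 to 5457 of all genes) and 5 in every omission at 72 h (3549 to 6620). IL-2 in vitro gave 8 in every omission (1935 to 2211).

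Over all genes, edgeR called 161 for FP and 115 for mIL-2 against PBS at 4 h. DESeq2 called 1100 and 790, the replicate block 994 and 509, the column-name tag 1684 and 1252, and grouping the 2 contradicting libraries by title 596 and 379. Lane as a covariate called 47 for mIL-2. For FP that fit rests on 1 FP library and cannot separate lane from FP. For FP and mIL-2, only the 2 groups compared called 0 and 27 and grouping by injected molecule 0 and 0. Leaving out 1 library called 10 to 89 and 1 to 90. For repeated FP edgeR called 113 against PBS and 105 against single FP, DESeq2 736 and 547, the block 0 and 0, only the 2 groups compared 59 and 43, and leaving out 1 library 3 to 137 and 4 to 131. For single FP edgeR called 2, DESeq2 143, the block 0 and omissions 1 to 31. DESeq2 called 520 at 168 h, where edgeR called 210 and omissions 128 to 209, and 1700 for FP at 1.5 h, where edgeR called 1110 and omissions 689 to 1099. For mIL-2 at 16 h edgeR called 61, DESeq2 137, only the 2 groups compared 7 and omissions 19 to 72. For the high dose edgeR called 0, DESeq2 549, its size factors in edgeR 27 and omissions 0 to 54. For the FP effect at 168 h minus 72 h edgeR called 1480, DESeq2 2305, the block 2653 and omissions 864 to 2079. The spread at 4 h and in the high dose and restimulation tables limits what could be detected there.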

Other observations

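At 4 h the title and the injected molecule contradict each other in 2 libraries, which are given as values only. The library titled as FP replicate 3, labelled as injected with PBS, had 215.1 CPM of Tnfrsf4, 82.83 CPM of Tnfrsf9, 255.6 CPM of Tnfrsf1b, 142.7 CPM of Cd27 and 17.45 CPM of Fas. The library titled as PBS replicate 3, labelled as injected with the fusion protein, had 142.5 CPM of Tnfrsf4, 103.1 CPM of Tnfrsf9, 245.5 CPM of Tnfrsf1b, 216.3 CPM of Cd27 and 36.39 CPM of Fas.

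Genes most like the other members over the 13 treated groups were Gpld1 (Pearson r of 0.917) for Tnfrsf9, Areg (0.927) for Tnfrsf1b, Zfp263 (0.961) for Tnfrsf25, Parp8 (0.921) for Tnfrsf14, Ms4a6b (0.924) for Fas, Cers4 (0.966) for Cd27 and Zfp526 (0.856) for Tnfrsf1a. Several of these groups share PBS libraries, and the values are a description.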
